A study of Mus musculus with 2 samples.

Results

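The respiratory chain subunits on this array were the clones whose current symbol names a nuclear-encoded subunit of NADH dehydrogenase (Nduf), succinate dehydrogenase (Sdh), the cytochrome bc1 complex (Uqcr), cytochrome c oxidase (Cox4 to Cox8) or ATP synthase (Atp5). They were chosen by symbol alone, and 74 of 16896 clones matched, for 54 of 8045 named genes. All 74 were named through the Entrez Gene number in the deposited table, and 29 of them carried older symbols that do not match the rule. Complex I had 20 genes, complex II 4, complex III 5, complex IV 9 and ATP synthase 16.

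The study recovered RNA from an extract of proliferating C2C12 cells, an established mouse myoblast line, either with an antibody to HuR (HuR sample) or with IgG (IgG sample, whose array columns are headed IgG1), which sets transcripts held by HuR against those held by a control antibody. No cells were treated, and both samples share the line and its growth in medium with 20% FBS and 1% Pen/Strep to 80% confluency. There was 1 sample per antibody with 3 array runs each, numbered 3, 4 or not numbered, and the labels do not say if a run is a new immunoprecipitation or a new hybridisation. Values are z scores, centred on each run's median, and differences are HuR minus IgG within a run pair of the same number, with the SD over the 3 pairs. Because each run is centred, a score shows a clone's place among all clones and not the amount of RNA recovered. The SD is a spread between runs, so no test between the antibodies was made. Of 12 myoblast markers, Vim, Msc and Mef2a had a named clone, with Vim and Mef2a in the brighter 50% of features, while Myod1, Myf5, Pax7, Des and Myog had none. Of 8 liver and epithelial markers, 7 were in the brighter 50% too, so a place there does not show that a gene is expressed in these cells.

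HuR (Elavl1) belongs to the ELAV family and binds U-rich and AU-rich stretches, mostly in the 3' ends of mRNAs, where it affects stability and translation. The respiratory chain passes electrons from NADH and succinate to oxygen through complexes I to IV and uses the energy to pump protons, and ATP synthase lets the protons flow back to make ATP. Most subunits are encoded in the nucleus, translated in the cytosol or at the mitochondrial surface and imported, and a small set is encoded by mitochondrial DNA. Muscle cells raise their content of these complexes as they form fibres.

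No respiratory chain gene differed by 1 z score unit or more between HuR and IgG, and most lay slightly lower with HuR. In the brighter 50% of features by mean signal, 53 clones gave 40 member genes, each taken as the median of its clones. Of these 40, 0 were at least 1 z score unit higher with HuR, where 1.56% of all 8450 brighter features were, and 0 were at least 1 unit lower, where 0.0947% were. The median difference was -0.13 over the 40 genes and -0.043 over all 4374 genes of the brighter 50%. The differences ran from -0.53 for Uqcrc1 to 0.29 for Cox8a, and 34 of the 40 genes were below 0, which is 85% against 57.6% of all genes. For 4 of the 40 the difference was below 0 by more than its SD over run pairs, which is 10% against 10.3% of all genes. For 1 of the 40, Cox8a, it was above 0 by more than its SD, which is 2.5% against 9.95%. Averaged over runs the list was thus shifted down by a small step. The SD of its median over the 3 run pairs was 0.21, larger than this step. Single genes were below 0 by more than their run spread about as often as other genes.

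The direction was not the same in the 3 run pairs. The unnumbered pair put the list's median at -0.315 (all genes -0.13), pair 3 put it at 0.09 (all genes 0.04) and pair 4 put it at -0.21 (all genes -0.05). Of the 40 genes, the unnumbered pair had 33 below 0, pair 3 had 9 and pair 4 had 31. The sequence lower, higher, lower in the unnumbered pair, pair 3 and pair 4 was held by 20 of 40 genes, or 50%, against 27.4% of all genes, and by 26 of the 53 clones, or 49.1%, against 24.1% of all brighter features. Lower in every run pair were 5 of the 40 (Ndufa8, Ndufb9, Ndufa13, Uqcrc1 and Atp5e), or 12.5%, close to the 11.2% of all genes. Higher in every pair were 0 of the 40, against 11.4%. With 1 run pair left out the rule asks for 2 pairs in place of 3, which more genes pass. Without run pair 3 the list's median was -0.21, and 25 of the 40 were lower in both remaining pairs against 39.1% of all genes, and 0 were higher against 23.4%. Without the unnumbered pair the median was -0.059, and 6 were lower against 19.9% and 5 higher against 20.1%. Without pair 4 the median was -0.078, and 8 were lower against 21.7% and 6 higher against 19.6%.

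**Figure D1:**
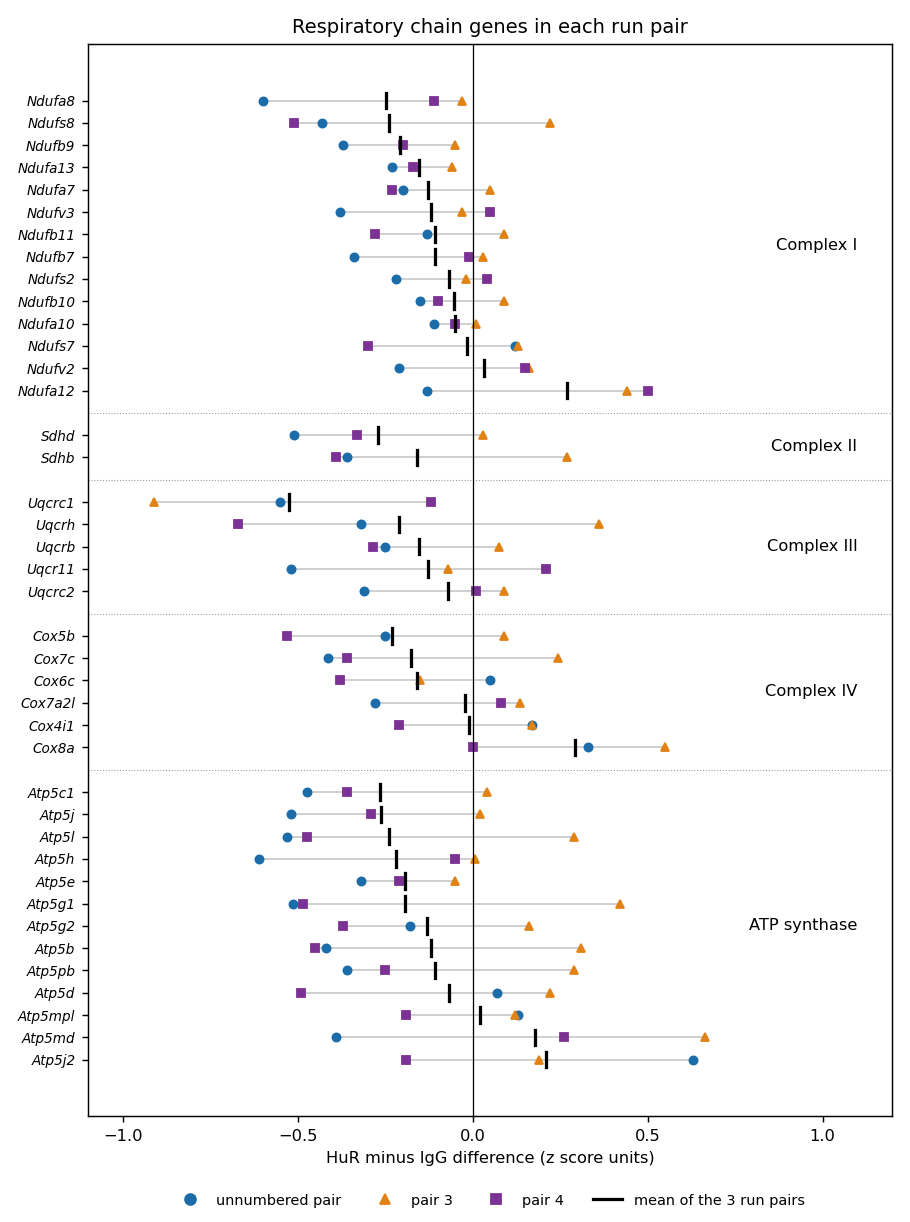
HuR minus IgG difference in z score units (x axis) for the 40 respiratory chain genes of the brighter 50% (y axis), grouped by complex. Circles, triangles and squares are the unnumbered pair, pair 3 and pair 4, and the black bar is their mean. Triangles lie at or right of 0 for 31 of the 40 genes, and Uqcrc1 (mean -0.53) and Cox8a (mean 0.29) are the ends of the range.

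Each complex had a median below 0 in the unnumbered pair and in pair 4 and above 0 in pair 3. In the mean of the pairs the median was -0.11 for complex I (14 genes), -0.215 for complex II (2 genes), -0.15 for complex III (5 genes), -0.091 for complex IV (6 genes) and -0.13 for ATP synthase (13 genes). The SD of the run pair medians was 0.13, 0.32, 0.20, 0.22 and 0.31 in the same order. The complexes share the runs and moved the same way, so this SD does not measure the gaps between them, which were not tested. Complex IV lay above complex I in the unnumbered pair, at -0.10 and -0.215, and below it in pair 4, at -0.285 and -0.105. Pair 3 was at 0.04 in complex I and at 0.19 in ATP synthase. The unnumbered pair was at -0.10 in complex IV and at -0.39 in ATP synthase.

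**Figure D2:**
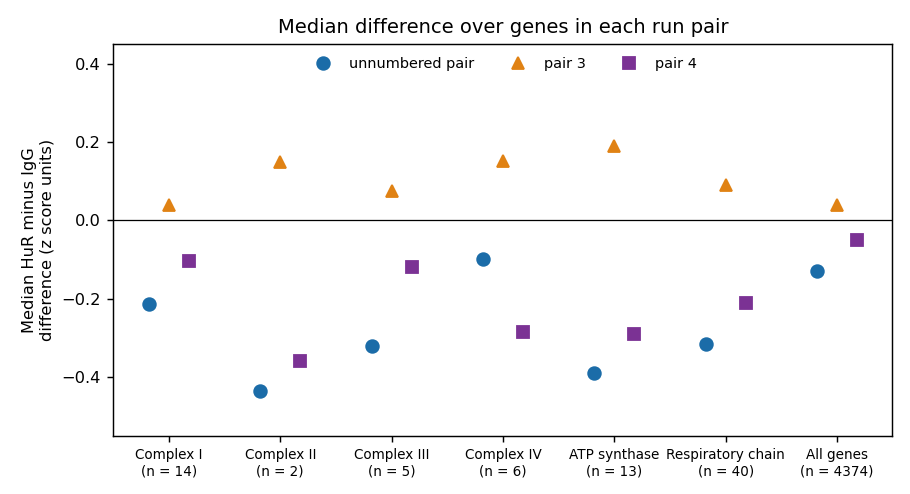
Median HuR minus IgG difference in z score units (y axis) in each run pair for the genes of each complex, for the 40 members together and for all 4374 genes of the brighter 50% (x axis, n genes in brackets). In every column the triangle of pair 3 lies above 0 and the other 2 symbols lie below it.

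Both antibodies moved between runs. The members' median score in the HuR runs was 0.35 in the unnumbered run, 0.46 in run 3 and 0.245 in run 4, against 0.52, 0.355 and 0.515 in the IgG runs. With HuR the score was highest in run 3, and with IgG it was lowest in run 3. Gene by gene, 22 of the 40 were highest in run 3 among the HuR runs, or 55%, against 37.1% of all genes. Among the IgG runs 27 of the 40 were lowest in run 3, or 67.5%, against 45.3% of all genes. For the 40 genes together the reversal of the difference in pair 3 was thus seen on both sides of the comparison. By complex this held in complexes I, II and IV. In ATP synthase the HuR median was highest in the unnumbered run (0.47, 0.41 and 0.09), while the IgG median was lowest in run 3 (0.73, 0.24 and 0.52). In complex III the HuR median was highest in run 3, but the IgG median was lowest in run 4 (0.365, 0.36 and 0.28).

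**Figure D3:**
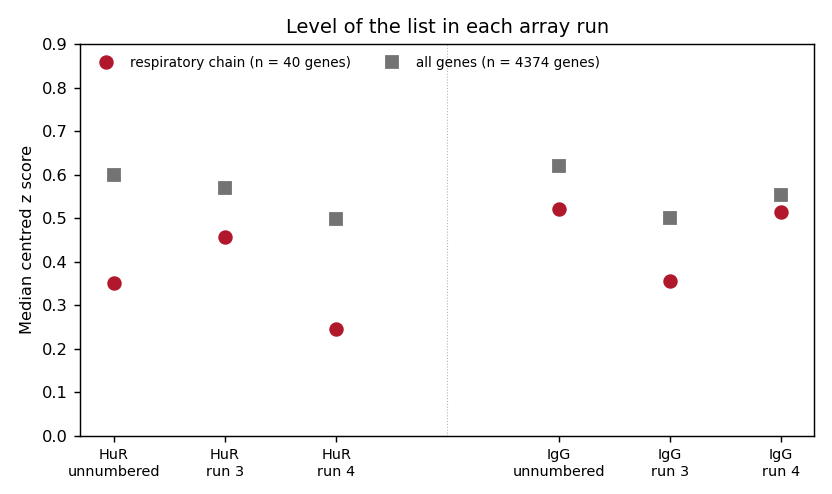
Median centred z score (y axis) over the 40 respiratory chain genes (circles) and over all 4374 genes of the brighter 50% (squares) in each HuR run and each IgG run (x axis). The circles stand at 0.35, 0.46 and 0.245 in the HuR runs and at 0.52, 0.355 and 0.515 in the IgG runs. The scores of different spots depend on the spots, so only changes between runs are compared.

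Values of neighbouring wells moved the same way. The 53 brighter member clones had a median of -0.083 over the medians of their adjoining wells on the 96-well source plate, and all brighter features had -0.045. By run pair, the members' neighbours were at -0.23 (unnumbered), 0.055 (3) and -0.05 (4), and those of all features at -0.13, 0.02 and -0.02. With the adjoining wells subtracted the list's median was -0.069 and that of all genes -0.0033, and with the median of the source plate subtracted they were -0.078 and -0.0062. The adjoining wells took complex II to -0.0042 and ATP synthase to -0.019, and the plate median took complex III to -0.005, while complex IV was at -0.15 and -0.12 under these settings. The part of plate position in the result was not tested. The 74 clones came from 54 source plates, with at most 4 on 1 plate, and 1 brighter member clone, of Ndufa10, had raised neighbours, meaning a neighbour median of at least 0.5.

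Complex I, the NADH dehydrogenase that feeds electrons into the chain, had 14 genes in the brighter 50%. The 4 core subunits among them, which carry the electron path, had a median of -0.042 and ran from -0.24 (Ndufs8) to 0.033 (Ndufv2). The 10 accessory subunits had a median of -0.11 and ran from -0.25 (Ndufa8) to 0.27 (Ndufa12), and 9 of them were below 0. Ndufa8 (Entrez Gene 68375), an accessory subunit, scored -0.32, 0.01 and 0.19 in the unnumbered run, run 3 and run 4 with HuR, against 0.28, 0.04 and 0.30 with IgG. Its difference was -0.25 ± 0.31, it was lower in every pair, and most of the gap came from the unnumbered pair at -0.60. Ndufs8 (225887), a core subunit that holds iron-sulfur clusters, scored -0.09, 0.62 and -0.04 with HuR and 0.34, 0.40 and 0.47 with IgG. Its HuR score in run 3 lay above all 3 IgG scores and the other 2 lay below them, which gave -0.24 ± 0.40.

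Ndufa12 (66414), an accessory subunit of the peripheral arm, scored 1.34, 2.15 and 1.72 with HuR and 1.47, 1.71 and 1.22 with IgG, for a difference of 0.27 ± 0.35. The groups overlapped, since the unnumbered HuR run lay below 2 of the 3 IgG runs. Ndufv2 (72900), a core subunit with an iron-sulfur cluster, scored 0.93, 1.29 and 1.13 with HuR and 1.14, 1.13 and 0.98 with IgG, which left 0.033 ± 0.21. The smallest spread among the 14 was that of Ndufa10, another accessory subunit, at -0.05 ± 0.06 for the gene, yet its 2 clones went opposite ways, at 0.11 ± 0.42 and -0.21 ± 0.45. Ndufa13 (also called GRIM-19), at -0.15 ± 0.086, and Ndufb9, at -0.21 ± 0.16, both accessory subunits, were lower in every pair. In Ndufa13 the HuR scores of 0.14, -0.01 and 0.08 overlapped the IgG scores of 0.37, 0.05 and 0.25. The other 7 genes of complex I in the brighter 50% ran from -0.13 (Ndufa7) to -0.017 (Ndufs7).

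Complex II, succinate dehydrogenase, is also an enzyme of the tricarboxylic acid cycle. Of its 4 subunits Sdhb and Sdhd were in the brighter 50%. Sdhd (66925), a membrane anchor, scored -0.39, 0.20 and -0.03 with HuR and 0.12, 0.17 and 0.30 with IgG, for -0.27 ± 0.28. Its unnumbered pair and pair 4 were lower and pair 3 was at 0.03. Its adjoining wells had a median of -0.35, and with them subtracted the Sdhd difference was 0.10. Sdhb (67680), the iron-sulfur subunit, scored 0.19, 0.55 and 0.60 with HuR and 0.55, 0.28 and 0.99 with IgG, for -0.16 ± 0.37. The dimmer Sdha, the flavoprotein subunit, was at -0.24 ± 0.16 and -0.017 ± 0.29 on 2 clones, and Sdhc, the other membrane anchor, was at -0.02 ± 0.12.

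Complex III, the cytochrome bc1 complex, passes electrons from ubiquinol to cytochrome c, and all 5 of its genes were in the brighter 50% and below 0. Uqcrc1 (22273), the core protein 1, had the lowest value of all 40 genes. Its brighter clone scored -0.38, -0.19 and -0.09 with HuR, against 0.17, 0.72 and 0.03 with IgG, for -0.53 ± 0.40. Every HuR score was below every IgG score, a pattern held by 1 of the 53 brighter member clones, which is 1.89% against 2.54% of all brighter features. Every HuR score above every IgG score was found in 0 of the 53, against 4.57%. Its adjoining wells were also low, with a median of -0.40. A dimmer Uqcrc1 clone from another plate was at -0.077 ± 0.41, so the low value was not repeated on the second clone. With both clones the gene was at -0.30 ± 0.055. That SD is small only because the clones went opposite ways in pair 3, at -0.91 and 0.37, and it does not show a repeatable value.

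Uqcrh (66576), the hinge protein, scored 0.59, 0.71 and 0.67 with HuR and 0.91, 0.35 and 1.34 with IgG, for -0.21 ± 0.52. The HuR runs lay within a narrow band and the IgG runs spread on both sides of it. Uqcrc2 (67003), the core protein 2, scored -0.16, 0.45 and 0.14 with HuR and 0.15, 0.36 and 0.13 with IgG on its brighter clone, for -0.07 ± 0.21. A dimmer clone of Uqcrc2 from the same plate was at -0.093 ± 0.15. Uqcr11 (66594), a small subunit, scored 1.81, 1.60 and 1.96 with HuR and 2.33, 1.67 and 1.75 with IgG, for -0.13 ± 0.37. With its adjoining wells subtracted it was at 0.017. Uqcrb, another small subunit, was at -0.12 and -0.19 on 2 clones.

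Complex IV, cytochrome c oxidase, hands the electrons to oxygen, and its nuclear subunits surround a core encoded by mitochondrial DNA. Cox8a (12868), a small membrane subunit found in most tissues, had the highest value of the 40 genes. It scored 0.79, 1.56 and 0.50 with HuR and 0.46, 1.01 and 0.50 with IgG, for 0.29 ± 0.28. It was higher in the unnumbered pair and pair 3 and at 0 in pair 4, and its groups overlapped. Cox5b (12859), a matrix-side subunit, scored 0.52, 0.66 and 0.40 with HuR and 0.77, 0.57 and 0.93 with IgG, for -0.23 ± 0.31. Cox7c (12867), a small subunit, had 2 clones from different plates. The first scored 0.96, 0.77 and 0.81 with HuR and 1.38, 0.40 and 0.73 with IgG, for 0.01 ± 0.40, and the second scored -0.24, 0.16 and -0.29 with HuR and 0.17, 0.04 and 0.51 with IgG, for -0.36 ± 0.46. Both Cox7c clones were lower in the unnumbered pair and higher in pair 3, and they parted in pair 4, at 0.08 and -0.80. Cox6c, another small subunit, was at -0.16 ± 0.22.

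Cox4i1 (12857), the regulatory subunit made in most tissues, had 3 brighter clones, at -0.10 ± 0.24, -0.01 ± 0.38 and 0.11 ± 0.14, and as a gene it was at -0.01 ± 0.22. The first scored 0.70, -0.55 and 0.88 with HuR and 0.96, -0.72 and 1.09 with IgG. The second scored 0.43, 0.22 and 0.47 with HuR and 0.16, 0.08 and 0.91 with IgG. The third scored 0.19, -0.05 and 0.29 with HuR and 0.02, -0.26 and 0.34 with IgG. All 3 were lower in pair 4 and higher in pair 3. Cox7a2l (20463), which is better known as a factor that joins complexes III and IV than as a subunit of complex IV, had 3 clones. The first scored 1.13, 0.79 and 1.62 with HuR and 1.59, 0.43 and 1.31 with IgG, for 0.07 ± 0.46. The second scored 0.28, 0.47 and 0.53 with HuR and 0.38, 0.56 and 0.68 with IgG, for -0.11 ± 0.032, lower in every pair by a small step. A dimmer clone of Cox7a2l scored -0.97, -0.03 and -0.62 with HuR and -0.53, -0.11 and -0.29 with IgG, for -0.23 ± 0.27. Cox7a2 (12866), the isoform of subunit 7a that is not confined to muscle, fell outside the brighter 50%, with 36.8% of features dimmer than it. It scored -0.41, -0.44 and -0.46 with HuR, against 0.04, -0.29 and 0.01 with IgG, for -0.36 ± 0.18. Every HuR score was below every IgG score here too. Over all signal levels 2 of the 74 member clones showed this, Uqcrc1 and Cox7a2, which is 2.7% against 2.63% of all features, and 0 of the 74 showed the opposite, against 3.92%. Cox6a1 (12861), the isoform of subunit 6a that is not confined to muscle, was also dim. It scored -0.36, 0.05 and -0.08 with HuR and 0.00, -0.12 and 0.12 with IgG, for -0.13 ± 0.27. The muscle isoforms Cox6a2, Cox7a1 and Cox8b, the lung isoform Cox4i2 and the third c subunit gene Atp5g3 had no named clone, so isoforms could not be set against each other.

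ATP synthase makes ATP with a catalytic F1 head, a ring of c subunits that turns in the membrane and a peripheral stalk that holds the head still. The 4 genes of F1 in the brighter 50% had a median of -0.16, the 3 of the peripheral stalk -0.22, the 2 of the c ring -0.16 and the 4 other membrane subunits 0.099. All 9 genes of the head, stalk and ring were below 0, and Atp5l, at -0.24 ± 0.46, was the 1 of the 4 others that was. This division was made after the values were known. Atp5c1 (11949), the gamma subunit of the central stalk, was at -0.36 ± 0.44 and -0.17 ± 0.24 on 2 clones. The lower clone scored -0.18, 0.24 and -0.22 with HuR and 0.32, 0.11 and 0.49 with IgG. The other Atp5c1 clone scored 0.23, 0.28 and 0.40 with HuR and 0.68, 0.33 and 0.41 with IgG, lower in every pair. Atp5j (11957), subunit F6 of the peripheral stalk, scored 0.02, 0.06 and 0.00 with HuR and 0.54, 0.04 and 0.29 with IgG, for -0.26 ± 0.27. Its HuR scores hardly moved, and pair 3 was at 0.02. The other stalk genes were Atp5h at -0.22 ± 0.34 and Atp5pb at -0.11 ± 0.35, and the delta subunit Atp5d was at -0.067 ± 0.37.

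Atp5b (11947), the catalytic beta subunit, had 3 clones, 2 of them on plate 122. They were at -0.21 ± 0.39, -0.087 ± 0.55 and -0.12 ± 0.40, and each was lower in the unnumbered pair and pair 4 and higher in pair 3. The first scored 1.43, 1.38 and 1.48 with HuR and 1.85, 1.14 and 1.93 with IgG. Its HuR scores lay between the IgG score of run 3 and those of the other runs. The second scored 0.35, 0.96 and 0.32 with HuR and 0.68, 0.42 and 0.79 with IgG, and the third 0.58, 0.73 and 0.56 with HuR and 1.05, 0.42 and 0.76 with IgG. In all 3 clones of Atp5b the IgG score was lowest in run 3. With the adjoining wells subtracted the Atp5b difference was 0.03. Atp5g1 (11951) and Atp5g2 (67942) encode the same mature c subunit with different import sequences. Atp5g1 was at -0.11 ± 0.69 on a clone that scored 0.54, 0.94 and 0.33 with HuR and 1.1, 0.26 and 0.79 with IgG. A second Atp5g1 clone scored -0.11, 0.38 and -0.15 with HuR and 0.36, 0.22 and 0.36 with IgG, for -0.27 ± 0.38. Atp5g2 scored 0.07, 0.19 and 0.02 with HuR and 0.25, 0.03 and 0.39 with IgG, for -0.13 ± 0.27. A cDNA spot need not tell such related genes apart.

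At the upper end were Atp5j2 (57423) and Atp5md (66477), small subunits of the membrane part. Atp5j2 scored 0.53, 0.13 and -0.27 with HuR and -0.10, -0.06 and -0.08 with IgG, for 0.21 ± 0.41. The IgG scores were nearly level, and the HuR runs spread from well above to below them. Atp5md was at 0.34 ± 0.70 on a clone that scored 1.82, 2.09 and 2.62 with HuR and 2.29, 1.39 and 1.83 with IgG. A second Atp5md clone scored 0.04, 0.34 and 0.33 with HuR and 0.35, -0.29 and 0.60 with IgG, for 0.017 ± 0.53. Both were lower in the unnumbered pair and higher in pair 3. With the adjoining wells subtracted both genes turned below 0, Atp5j2 to -0.017 and Atp5md to -0.0083. Atp5e, the epsilon subunit of F1, was lower in every pair at -0.19 ± 0.14, with HuR scores of 0.59, 0.39 and 0.55 that overlapped the IgG scores of 0.91, 0.44 and 0.76. Atp5a1, the alpha subunit, was dim and was at -0.45 ± 0.84, with the unnumbered pair at -1.30 and pair 3 at 0.37.

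**Figure D4:**
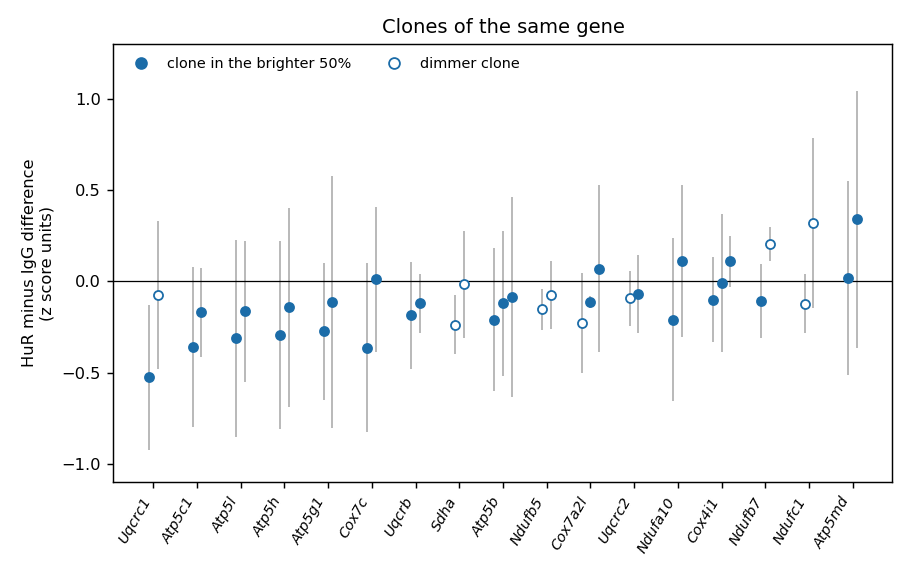
HuR minus IgG difference in z score units (y axis) for each clone of the 17 respiratory chain genes with 2 or 3 clones (x axis), with the SD over 3 run pairs as the bar. Filled circles are clones in the brighter 50% and open circles are dimmer ones. Clones of Uqcrc1, Cox7c and Ndufc1 lie far apart, and most bars cross 0.

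Clones of the same gene give a check that does not rest on 1 spot. Among the 11 members with 2 or more brighter clones, the clones of a gene lay 0.18 apart in the median, from 0.067 to 0.37, and among the 653 such genes overall they lay 0.25 apart in the median. For 6 of the 11 all clones were below 0, namely Atp5b, Atp5c1, Atp5g1, Atp5h, Atp5l and Uqcrb, and this was so for 228 of the 653 genes overall. The distance between clones was thus about as large as the differences themselves. The 14 genes outside the brighter 50% had a median of -0.12, 11 of them below 0, and ran from -0.45 (Atp5a1) to 0.17 (Atp5k, a small membrane subunit of ATP synthase). Lower in every pair among these 14 were Cox7a2 and Ndufv1, the complex I subunit that binds NADH, at -0.15 ± 0.047. Of all genes at all signal levels, 57.4% were below 0 and 13.5% were lower in every pair. Outside these 14, a dimmer clone of Ndufb7 was higher in every pair, at 0.20 ± 0.0945, and its adjoining wells had a median of 0.39. These spots cannot be told from background, as no background level was used here.

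In the authors' deposited table the z ratio of the 74 clones ran from -1.76 (Uqcrc1) to 1.12 (Atp5md). Its two-tailed p-value, taken as unadjusted, was under 0.05 with a lower HuR value for 4 of the 74, which is 5.41% against 3.33% of all features. These 4 were the clones of Uqcrc1 (0.03), Ndufa13 (0.04), Atp5j (0.04) and Cox7a2 (listed as 0). With a higher HuR value it was under 0.05 for 0 of the 74 in the authors' deposited table, against 4.15% of all features.

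The members also have features that their choice by symbol did not use. They lie on 18 chromosomes, and 45 of the 54 had a promoter window in RefSeq (GRCm38.p6, 250 bases before to 50 after the start). The letters GCATGCGC are the core of the site of NRF-1, a factor known for driving genes of the respiratory chain. They were found on either strand in 8 of the 45 genes, or 17.8%, against 3.05% of all 27025 genes with a window. Those 27025 are not limited to genes on this array, whose own share is not given here. The letters CCGGAAG, the core of the site of ETS factors such as GABP (NRF-2), were found in 15 of the 45, or 33.3%, against 9.93%. The windows of Atp5k, Atp5l, Cox6a1, Sdhb and Uqcr11 held both. In the brighter 50%, the 6 genes with the NRF-1 letters had a median difference of -0.20 and the 27 without -0.12, and the 12 with the ETS letters had -0.20 and the 21 without -0.12. These gaps were not tested. The SD of the list's median between run pairs, 0.21, does not measure them, since genes with and without the letters share the runs. A match is a description of the letters, not a site, and a promoter is not itself the RNA that HuR binds. The windows of the lowest and highest genes and of one with both sets of letters are shown as a description. Whether promoters bear on the values was not tested. Capitals mark the NRF-1 letters and the ETS letters on either strand, and where 2 matches of GCATGCGC on opposite strands overlap they form GCGCATGCGC.
Uqcrc1 (chr9:108936398-108936697, plus strand): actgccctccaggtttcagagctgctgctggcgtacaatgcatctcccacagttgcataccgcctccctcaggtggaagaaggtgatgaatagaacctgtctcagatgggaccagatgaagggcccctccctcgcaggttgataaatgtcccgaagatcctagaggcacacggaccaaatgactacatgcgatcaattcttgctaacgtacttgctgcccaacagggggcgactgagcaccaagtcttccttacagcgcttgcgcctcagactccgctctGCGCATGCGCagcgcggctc
Cox8a (chr19:7217567-7217866, minus strand): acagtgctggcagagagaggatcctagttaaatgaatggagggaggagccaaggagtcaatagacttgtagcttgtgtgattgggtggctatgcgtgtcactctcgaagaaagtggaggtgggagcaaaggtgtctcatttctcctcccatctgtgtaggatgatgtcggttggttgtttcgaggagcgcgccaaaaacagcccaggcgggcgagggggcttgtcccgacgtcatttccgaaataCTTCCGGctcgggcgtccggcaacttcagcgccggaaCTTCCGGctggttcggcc
Uqcr11 (chr10:80406772-80407071, minus strand): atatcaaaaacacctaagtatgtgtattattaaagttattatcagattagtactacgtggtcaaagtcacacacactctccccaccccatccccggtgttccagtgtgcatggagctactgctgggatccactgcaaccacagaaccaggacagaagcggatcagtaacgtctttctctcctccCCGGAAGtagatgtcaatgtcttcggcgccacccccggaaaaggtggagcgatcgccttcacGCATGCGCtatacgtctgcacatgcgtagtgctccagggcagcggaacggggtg

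The subunits encoded by mitochondrial DNA have no symbol in the table, but 160 clones carry a description that matches the mitochondrial genome, 119 of them in the brighter 50%. Which mitochondrial gene each holds is not given. The unnumbered pair put their median difference at -0.23, pair 3 at 0.06 and pair 4 at -0.06, with -0.08 for the mean. Of the 119, 23 were lower with HuR in every pair and 6 were higher, beside 10.5% and 10.2% of all brighter features. Mitochondrial DNA holds few genes, so many of these clones share a transcript and do not count as separate genes. The order of the run pairs was that of the nuclear subunits and also that of all brighter features, whose medians were -0.11, 0.02 and -0.02.

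Other mitochondrial genes were taken from lists of known members. Of 42 assembly factors 16 were on the array and 7 in the brighter 50%. These 7 had a median of 0.053, 3 below 0 and a range from -0.16 (Sdhaf2) to 0.38 (Ndufaf6). Lower in every pair were 0 of the 7, against 11.2% of all genes. Higher in every pair were 2, Ttc19 and Ndufaf6, against 11.4%. All 17 listed genes of the tricarboxylic acid cycle, which supplies NADH and succinate, were on the array. The 12 in the brighter 50% had a median of -0.083, and 9 were below 0. Of these 12, 5 were lower in every pair, against 11.2% of all genes. In the other direction 1, Cs at 0.13 ± 0.12, was higher in every pair, against 11.4%. Idh2, an isocitrate dehydrogenase, was at -0.29 ± 0.19, and Pdhb, a subunit of pyruvate dehydrogenase, was at -0.083 ± 0.015. Suclg2, a succinyl-CoA ligase subunit, was lowest at -0.73 ± 0.79, with pair 4 at -1.61 and the others at -0.50 and -0.07. Of 19 genes of import, carriers and pore on the array, the 13 in the brighter 50% had a median of -0.047. They ran from Tomm40, the import pore, at -0.52 ± 0.57 to Timm17a, a subunit of the inner membrane translocase, at 0.36 ± 0.18. Of 5 genes of cytochrome c and coenzyme Q synthesis on the array, the 4 in the brighter 50% had a median of -0.027.

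The 5 genes outside the list that followed its mean profile over the 6 runs most closely had Pearson correlations of 0.997 for 2610524G04Rik, 0.993 for Ndfip1, 0.981 for Nedd8, 0.980 for Bat3 and 0.980 for Trim28. The 6 points of each correlation are runs of 2 samples and share arrays with every other gene. Of 4334 other genes 1237 had a correlation over 0.5 with this profile, so the profile is a common one on these arrays. Of the 40 members, which make up the profile, 26 had one over 0.5. The 5 genes had differences from -0.32 (Bat3) to -0.092 (Trim28).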

How the data were processed

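The authors deposited a z score for each clone in each of 6 array runs, per the file headers, with their mean scores, z ratio and two-tailed p-value. The scanner and any background correction are not stated. The deposited p-value is quoted as the authors' own, since its computation is not stated either. The series matrix held the same mean scores. RNA was labelled with a radioactive nucleotide during reverse transcription, per the labels' protocols.

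Here the median of each run was subtracted from its scores, separately in both sections of 8448 features. Signal is the mean of the 6 centred scores, and the brighter 50% of features were compared. A gene is the median of its clones. Clones were named by Entrez Gene number through RefSeq genes of GRCm38.p6 (7893 features), else by deposited symbol (2719), while 111 had conflicting numbers and 6173 no name. HuR and IgG runs of the same number were paired. Deviations of a run from the mean of its antibody correlated over features at 0.424, 0.544 and 0.33 within such pairs, and at -0.475 to 0.0795 in the remaining combinations.

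The design planned no test, since each antibody has 1 sample. The number of arrays limits the precision. Described with every run were the 2 highest and 2 lowest genes of each complex, genes with 3 clones and tissue isoforms, with means alone for a dimmer second clone. Dim and other members named were chosen after their values were seen. The members, lists and rules were chosen with earlier results of these data known. Computation used Python 3.11.15, numpy 2.4.6 and pandas 2.3.3, and the code was tested on simulated data. Some results are not reported here.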

Additional observations from a re-analysis of the deposited data

How the results depend on the processing

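The median of the 40 respiratory chain genes was below 0, and below the median of all genes, in 14 of 14 alternatives. Each of these used the unnumbered pair, pair 4 or both, where the list was low, so the count was partly fixed beforehand. None took pair 3 alone, where the list was at 0.09 and all genes at 0.04. The list's median ranged from -0.21 to -0.059 with 1 run pair left out. With 1 run pair left out, complex I was at -0.17 to -0.045, complex II at -0.40 to -0.105, complex III at -0.27 to -0.105, complex IV at -0.13 to -0.039 and ATP synthase at -0.305 to -0.035, 6 to 25 members were lower in both remaining pairs (19.9% to 39.1% of all genes) and 0 to 6 were higher (19.6% to 23.4%). The signal trend, source plate median, section and clone settings were chosen after seeing the data. On the first section complex III was at -0.37, over 2 genes. Members lower in every pair, 5 of 40, became 8 with the scores as deposited (12.2% of all genes). They were 1 of 15 on the first section (10.4% of all genes) and 0 of 16 in the brightest 25% of features (8.78%). Members higher in every pair, 0 of 40, became 1 with quantile normalization, 2 with adjoining wells subtracted, 2 with the signal trend subtracted and 3 with the source plate median subtracted. The first section and the brightest 25% hold fewer genes, and the other causes were not tested. In the brightest 25% complex IV was at 0.01, over 5 genes. Of 278 values of 22 named genes, 1 moved by more than the SD over run pairs, that of Sdhd with adjoining wells subtracted (0.10). Part of this count was fixed beforehand, so it does not measure stability. Where a single clone stands for the gene, dropping any pair, or using the median of the pairs, cannot shift its mean by a full SD. Using all signal levels or the brightest clone leaves such a gene unchanged, as with Ndufs8 at -0.24. Some values that moved by less than the SD changed sign. Without the unnumbered pair Atp5b was at 0.035, Uqcr11 at 0.07, Uqcrc2 at 0.05 and Cox7a2l at 0.11, without pair 3 Atp5md was at -0.065 and Ndufv2 at -0.03, and without pair 4 Cox4i1 was at 0.19, Uqcrh at 0.02 and Ndufv2 at -0.025. With adjoining wells subtracted Atp5b was at 0.03, Uqcr11 at 0.017, Atp5j2 at -0.017 and Atp5md at -0.0083, and with the plate median subtracted Atp5b was at 0.042, Uqcrc2 at 0.05 and Uqcrh at 0.0017. Cox7c was at 0.01 by its brightest clone. Cox7a2l, Cox4i1 and Uqcrc2 also changed sign under other settings. Differences were taken within run pairs, but runs are not samples. No paired analysis was possible because testing pairs of samples needs more than a single HuR and a single IgG sample.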
